A study of Oryza sativa with 36 samples.

Results

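The calcineurin B-like proteins (CBL) and the CBL-interacting protein kinases (CIPK) of rice were followed in leaves, roots and young panicles under drought. The genes were taken by name: every gene of the reference annotation whose symbol or synonym is CBL or CIPK with a number, with or without the prefix Os, read from its brightest probe set among those that match 1 gene. The annotation names 39 such genes (9 CBL and 30 CIPK), and 31 of them were measured (7 CBL and 24 CIPK) among 17905 genes measured in the same way. The measured members are CBL2, CBL3, CBL4, CBL5, CBL6, CBL9 and CBL10, and CIPK1, 2, 5, 6, 7, 8, 10, 11, 12, 14, 16, 17, 18, 19, 20, 21, 23, 24, 25, 26, 29, 30, 31 and 32. No probe set of 1 gene was found for CBL1, CBL7, CIPK3, CIPK9, CIPK13, CIPK15, CIPK27 and CIPK33. A few names are shared in the annotation, where CIPK31 also carries the synonym CIPK3, CIPK18 also CIPK22 and CBL5 also CBL2.

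CBL proteins are small calcium sensors that bind calcium through EF hands. Each acts through CIPK partners, serine/threonine kinases of the SnRK3 group, which a CBL binds at the NAF motif behind the kinase domain, and the pair is brought to a membrane where the kinase phosphorylates channels and transporters. The best known pairs are CBL4 with CIPK24, the rice counterparts of SOS3 and SOS2 in the salt pathway, and CBL1 with CIPK23, which activates the potassium channel AKT1 in rice roots. In Arabidopsis, CBL2 and CBL3 sit at the vacuole membrane and CBL10 acts with CIPK24 in shoots under salt. Numbers of rice and Arabidopsis members do not always mark orthologs.

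The plants were all of the line DK151, a single drought-tolerant introgression line bred from IR64, so that the data describe 1 genotype. They stood in tubes of Turface watered with nutrient solution, and drought was made by slow draining until the relative water content of the leaf was 65 to 75%, while controls stayed watered. The paper states that stress became apparent in fewer days at booting than at tillering and panicle elongation. Stage and length of drought therefore cannot be told apart where booting is compared with another stage. Each of 12 groups has 3 arrays: leaves (TL) and roots (TR) at tillering, leaves (PL) and roots (PR) at panicle elongation, and leaves (BL) and young panicles (BP) at booting, each from control and droughted plants. Whole organs were taken, so that fewer cells of a type and less RNA per cell cannot be told apart in any value below. Values are linear intensities normalized with dChip, with a median of 59.7 over all rice probe sets and arrays. The intensities of 21 members were above this median on all arrays of all 12 groups, and those of CIPK30 were below it on all arrays.

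Replicate arrays had a mean correlation of 0.944 to 0.992 with the others of their group, and control replicate 2 of PL was the lowest. On that array 14 of the 31 members (45.2%) lay 2-fold or more from the group's other arrays, against 18.2% of all genes. All 5 drought markers measured rose 5-fold or more in each of the 6 tissues and stages. Their summed intensity already ran from 377 to 5765 over the control arrays of BP and from 318 to 6081 over those of PR, against 30059.6 or more on every array of droughted young panicles and 52847 or more on every array of droughted PR roots. The summed root markers (9 of 11 measured) were 12810 on control replicate 3 of TL and 1032 and 1555 on its other arrays, and 4451 on control replicate 2 of PL against 1813 and 1930. The summed young panicle markers (13 measured) were also higher on control replicate 2 of PL, 5664 against 3166 and 3329. Every array of young panicles had 34044 or more. The summed leaf markers (3 of 10 measured) ran from 80.8 to 1606 over the control roots of PR, under the 16299.7 or more of every control leaf array. The marker sums also moved with drought. Leaf markers went from 16299.7 to 17568.5 over the control arrays of BL to 2681 to 4595 over its drought arrays, and in PL from 19649 to 24355 to 3174 to 5361. Root markers went from 30539 to 33828 to 6906 to 7428 in TR and from 20551 to 34719 to 6946 to 7843 in PR, with 8 and 7 of the 9 called lower. The part of these values in the results below was not tested, except where a value without the array is given.

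Under drought 15 of 31 members rose in leaves at booting and 0 fell, while leaves and roots at tillering had the fewest calls, 8 each. A member is said to have risen or fallen where the adjusted p of limma, over all rice probe sets, was under 0.05. In BL the risen share was 48.4%, against 28.1% of all genes, and the fallen share was 0%, against 18.7% of all genes. In PL 11 rose and 5 fell (35.5% and 16.1%, against 26.1% and 37.8% of all genes). In PR 8 rose and 3 fell (25.8% and 9.68%, against 16.9% and 24.9%). In TL 6 rose and 2 fell (19.4% and 6.45%, against 28.5% and 20.2%), so that fewer members than genes in general were called in either direction. In TR 4 rose and 4 fell (12.9% each, against 16.9% and 26.1%), and in BP 7 rose and 6 fell (22.6% and 19.4%, against 18.3% and 27.4%). The median log2 change of the members was 0.71 in BL, 0.26 in PL, 0.17 in PR, 0.03 in TL, 0.02 in TR and -0.23 in BP, and that of all genes was 0.05, -0.15, -0.09, 0.10, -0.07 and -0.09 in the same order. In number, 27 members were called in 1 or more of the 6 comparisons: 16 only rose, 4 only fell and 7 rose in one and fell in another. Of all genes 93.1% were called in 1 or more, 26.9% only rose, 36.9% only fell and 29.2% did both, so that the share of members called at all was no higher than that of genes in general.

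**Figure D1:**
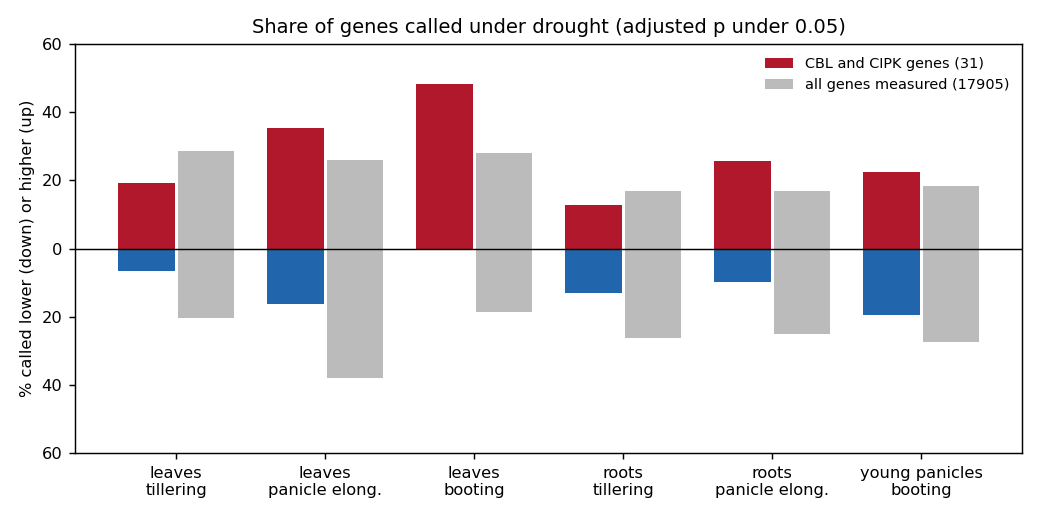
Share of the 31 CBL and CIPK genes (coloured) and of all 17905 genes measured (grey) called higher (bars up) or lower (bars down) under drought in each tissue and stage, in percent. The bar for members that rose is tallest in leaves at booting, 48.4% against 28.1% of all genes, with no bar for members that fell.

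The scaling and the replicate number change some of these counts. With quantile normalization 15 members rose in PL, as many as in BL. The shares of all genes with this scaling are not given for PL and BL, so these counts are not set against genes in general. With each array centred on its own median, which moves the log2 changes of TL up by 0.15, 11 members rose in TL and 1 fell, against 37.1% and 15.7% of all genes. With quantile normalization 6 rose in TR and 3 fell, against 21.9% and 23.1% of all genes. With the replicate number as a block, 7 rose and 7 fell in TR (19.5% and 28.0% of all genes), and 4 fell in TL (18.8% of all genes). In BP more members fell with the block, and with the comparison fitted alone, than in the main fit. The counts are in the section on processing, without the share of all genes. With a minimum of 5-fold, the size the study asked for, CIPK16 was called in TL (3.08% of all genes in either direction), CIPK18 in PL (11.6%) and CIPK6 and CIPK16 in BL (3.71%), and 0 members in TR (4.02%), PR (3.82%) and BP (3.49%).

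**Figure D2:**
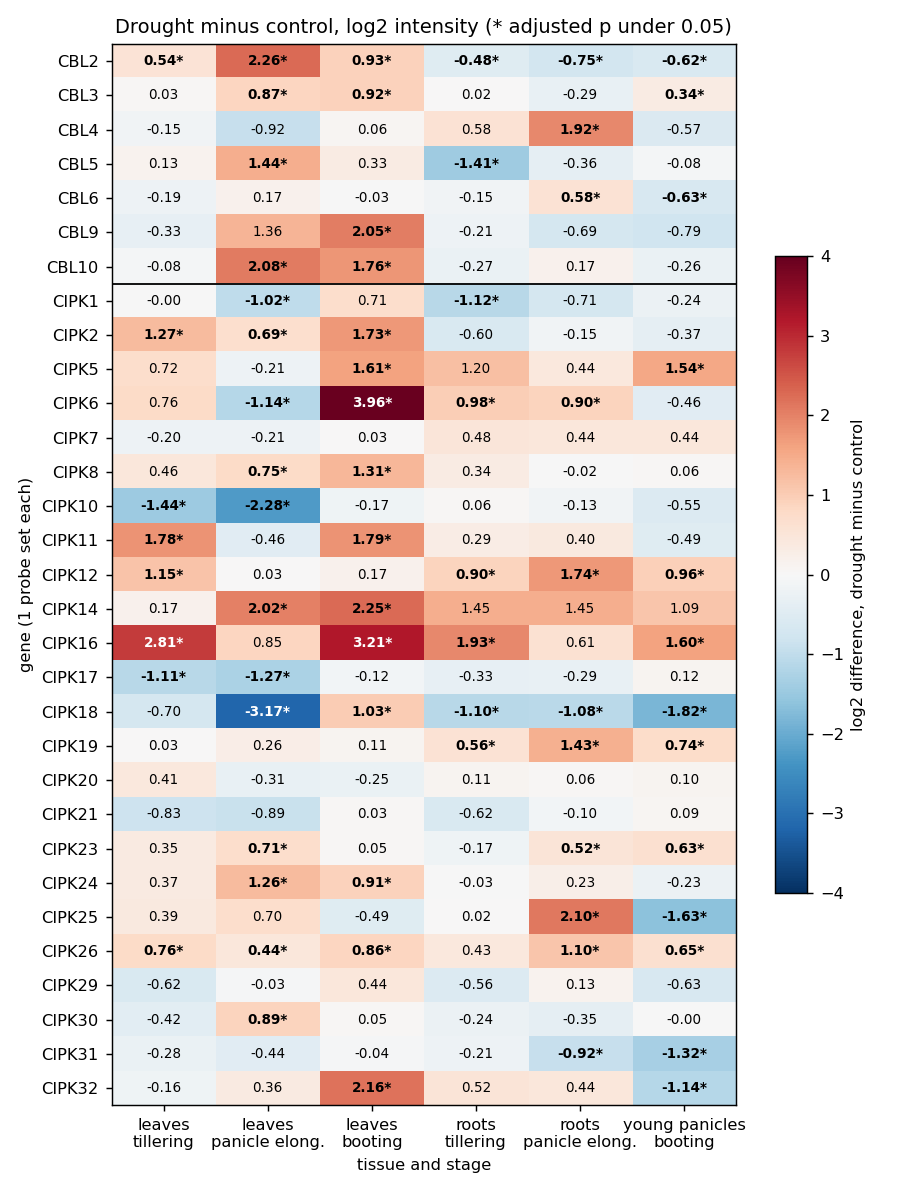
Log2 change under drought (drought minus control) of each member in each tissue and stage; red is higher and blue is lower under drought, and an asterisk marks an adjusted p under 0.05. CBL2 is red in the 3 leaf columns and blue in both root columns and in young panicles, and the deepest colours are CIPK6 in leaves at booting (3.96) and CIPK18 in leaves at panicle elongation (-3.17).

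Among the calcium sensors, CBL2 was the only gene called in all 6 comparisons, up in the 3 leaf comparisons and down in roots and young panicles. In PL it read 147, 261 and 151 on the control arrays and 896, 796 and 900.2 on the drought arrays. Every drought array lay well above every control array, and the log2 change was 2.26 ± 0.18 (SE, n = 3 arrays per group, as for every change here), with an adjusted p of limma of 1.60e-11. The SE comes from 1 limma estimate of the spread per probe set, shared by all groups, and not from the arrays compared alone. In BL the control arrays read 198, 164 and 249 and the drought arrays 436, 374 and 339, a log2 change of 0.93 ± 0.18. In TL they read 214, 255 and 169 against 275, 319 and 325, without overlap and with a log2 change of 0.54 ± 0.18, whose adjusted p in limma was 0.0159 and 0.0659 with the replicate number as a block, and the call held in 4 of 6 fits with an array left out.

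In roots CBL2 stood higher than in leaves before drought and fell. In PR it read 669, 639.9 and 989.6 in controls and 419, 471 and 453 under drought (log2 change -0.75 ± 0.18), and in BP 541, 578 and 552 against 365, 374 and 347 (-0.62 ± 0.18). In TR it read 655, 712 and 675 against 516, 484 and 463 (-0.48 ± 0.18), lower on every drought array. The limma adjusted p in TR was 0.0465, and the call was lost when any 1 of the 6 arrays was left out (log2 change -0.52 to -0.44), as well as with quantile normalization and median centring. The difference between the change in leaves and that in the other organ of the same stage was itself called each time: 1.02 for TL against TR, 3.01 for PL against PR and 1.55 for BL against BP (log2), with adjusted p of limma of 0.00254, 2.14e-10 and 2.80e-05.

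CBL10 and CBL3 rose in the later leaves. CBL3 was also called higher in BP (log2 change 0.34, limma adjusted p 0.0262). That call held in 3 of 6 fits with an array left out. CBL10 read 365, 484 and 394 in PL controls and 1822, 1649.8 and 1769 under drought, a log2 change of 2.08 ± 0.21. In BL it read 300.5, 250.1 and 364 against 1209, 819 and 1066 (1.76 ± 0.21). It was not called in the other 4 comparisons, where its log2 changes ran from -0.27 to 0.17, and the rise in PL exceeded that in TL by 2.16 (limma adjusted p 1.88e-06). CBL3 changed less but with little scatter: 772, 948 and 786 became 1499, 1558 and 1502 in PL (0.87 ± 0.11), and 902, 907 and 952 became 2069, 1507 and 1701 in BL (0.92 ± 0.11).

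CBL4, the sensor of the salt pathway, rose in PR, from 42.8, 35.3 and 95.0 to 180.2, 217 and 198 (1.92 ± 0.40, limma adjusted p 0.000400). In PL its control arrays read 125, 679 and 118 and its drought arrays 135, 83.4 and 130.4, so that 1 control array carries the fitted log2 change of -0.92, which was not called. CBL5 fell in TR from 207, 255 and 238 to 88.7, 84.0 and 90.4 (-1.41 ± 0.23), the largest fall of any member there. It rose in PL from 31.5, 27.4 and 32.3 to 92.8, 66.6 and 90.1 (1.44 ± 0.23), from below the median of all probe sets to above it. CBL6 rose in PR and fell in BP by about the same size (0.58 ± 0.11 and -0.63 ± 0.11).

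CBL9 rose in BL, from 48.4, 46.1 and 46.6 to 270.3, 139.8 and 197 (2.05 ± 0.66, limma adjusted p 0.0152, and 0.0690 without drought replicate 1). Its arrays scattered widely in other groups, from 30.9 to 243 over the control arrays of TL and from 41.7 to 176 over the drought arrays of TR. CBL9 is read by a probe set of a type that can bind several transcripts, and so are CIPK2, CIPK11 and CIPK16. All 4 rose in BL, and 11 of the 27 other members did as well, with a median log2 change of 0.33 without the 4.

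Of the kinases, CIPK6 had the largest change of all members. In BL it read 35.1, 69.5 and 33.4 in controls and 429, 752 and 959.7 under drought, so that the groups lay far apart, and the log2 change was 3.96 ± 0.33 (15.6-fold, limma adjusted p 2.34e-10). In PL it fell, from 692, 1288 and 779 to 406, 376 and 424 (-1.14 ± 0.33, and -0.87 with an adjusted p of 0.0482 without control replicate 2). In TR it rose from 280.2, 321 and 259.6 to 439, 570.5 and 722 (0.98 ± 0.33, a call that held in 2 of 6 fits with an array left out). In PR it read 352, 237 and 743 against 831, 955 and 512, groups that overlap, with a log2 change of 0.90 ± 0.33 that was not called without control replicate 2 (0.53, limma adjusted p 0.295).

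The direction of CIPK6 therefore differed between leaves of different stages. The change in BL exceeded that in PL by 5.11 and that in BP by 4.43, where young panicles read 2820.2, 2701 and 2769.9 in controls and 1844, 2293 and 1911 under drought. The change in PL minus that in PR was -2.05 (limma adjusted p 0.000989). In Arabidopsis, CIPK6 works with CBL4 on a potassium channel.

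CIPK16 rose in 4 of the 6 comparisons. In TL it read 123, 115 and 99.5 in controls and 702, 945 and 730.4 under drought (2.81 ± 0.42). In BL it read 113, 222 and 102 against 903, 1605 and 1406 (3.21 ± 0.42, 9.26-fold). In both, each drought array was well above each control array. In BP 235, 278 and 280.5 became 705, 985 and 742 (1.60 ± 0.42), and in TR 309, 470.3 and 169 became 854, 1523 and 1041 (1.93 ± 0.42).

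In PL and PR the control arrays of CIPK16 scattered and it was not called. PL controls read 86.7, 372 and 106 and drought arrays 239, 315 and 268. Without control replicate 2 the log2 change in PL was 1.51, with an adjusted p of limma of 0.00159. The change of CIPK16 in BL exceeded that in PL by 2.36, and by 1.71 without this array, and both were called.

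**Figure D3:**
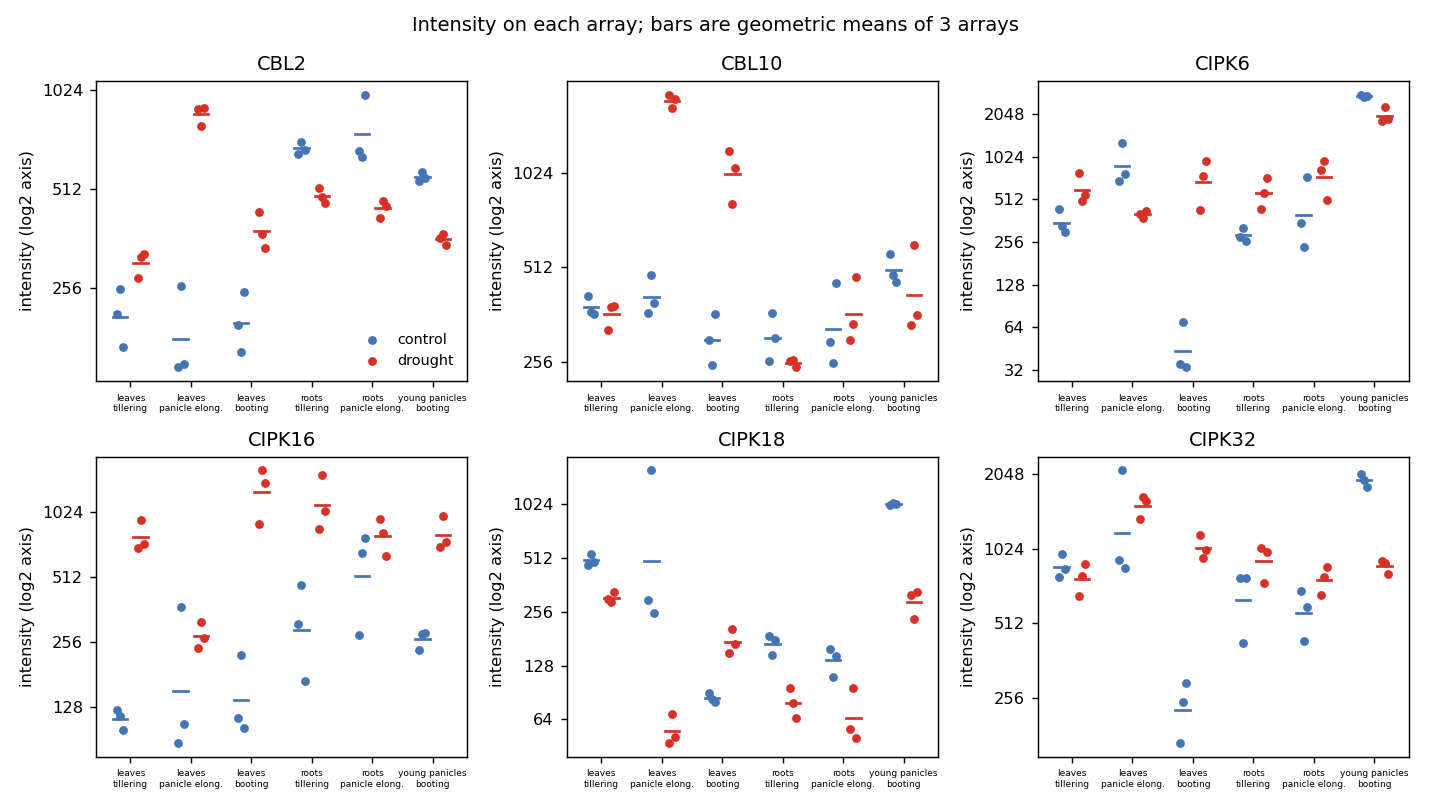
Intensity on each array (points, log2 axis) of 2 sensors and 4 kinases in control (blue) and drought (red) plants, with the geometric mean of 3 arrays as a bar. CIPK6 in leaves at booting goes from 33.4 to 69.5 in controls to 429 to 959.7 under drought, and 1 control array of CIPK18 in leaves at panicle elongation stands at 1586.

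CIPK18 fell in 4 comparisons and rose in BL. In PL it read 299.6, 1586 and 253 in controls and 47.3, 68.8 and 50.8 under drought (-3.17 ± 0.37, limma adjusted p 3.33e-08). Control replicate 2 stood far above its group, and without it the log2 change was -2.33, still called (limma adjusted p 4.92e-10). In BP it read 1014, 1046 and 1026 against 320.3, 233 and 331, a log2 change of -1.82 ± 0.37 on tightly grouped arrays.

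The falls of CIPK18 in roots were of one size, from 188, 147 and 177 to 96.2, 79.3 and 65.2 in TR (-1.10 ± 0.37) and from 159, 111 and 146 to 56.7, 95.7 and 50.2 in PR (-1.08 ± 0.37). In BL it read 90.2, 83.7 and 80.3 against 150.0, 205 and 168 (1.03 ± 0.37). The 3 drought arrays were all above the controls there, but the call (limma adjusted p 0.0302) held in 1 of 6 fits with an array left out. The calls in TR and PR held in 2 of 6 such fits each. The change in BL exceeded that in PL by 4.20 (3.36 without control replicate 2 of PL) and that in BP by 2.85, and all were called.

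CIPK25, and CIPK32 as read by its brightest probe set, also changed in opposite directions. CIPK32 rose in BL from 169, 246 and 293 to 1159.5, 935 and 1013 (2.16 ± 0.26) and fell in BP from 2039.6, 1935 and 1806 to 910.0, 899 and 811 (-1.14 ± 0.26). Drought arrays of both organs ended near each other, and the difference of 3.31 between the changes was called (limma adjusted p 5.68e-08). The second and dimmer probe set of CIPK32 did not show this: it was called higher in both, by 0.34 in BL and 0.43 in BP (limma adjusted p 0.0347 and 0.0101). CIPK25 rose in PR from 236, 213 and 626 to 1439.8, 1419 and 1219 (4.30-fold, limma adjusted p 2.09e-06), the largest rise there, and fell in BP from 2055, 1772 and 1757 to 652, 492 and 666 (-1.63 ± 0.29). In BL its log2 change of -0.49 was the lowest of the members and was not called. In TR it read 410.0, 563 and 317 against 416, 341 and 535, and its change in PR exceeded that in TR by 2.09 (limma adjusted p 0.00176).

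Smaller rises that recurred were those of CIPK26 and CIPK12. CIPK26 rose in 5 comparisons, with log2 changes from 0.44 to 1.10, and its change in TR was 0.43 and not called. The call in PL was marginal (0.44 ± 0.18, limma adjusted p 0.0459) and held in 1 of 6 fits with an array left out. CIPK12, a kinase whose overexpression has given rice plants more drought tolerance, rose in TL (1.15 ± 0.18), TR (0.90 ± 0.18), PR (1.74 ± 0.18) and BP (0.96 ± 0.18). In PR its arrays went from 47.6, 59.2 and 60.0 to 220.3, 169.7 and 167.

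In PL and BL CIPK12 was not called, with log2 changes of 0.03 and 0.17. The controls of BL already read 184, 198 and 171, above the 47.6 to 101 of the other control groups. CIPK19 followed a like set of organs, with rises in TR (0.56), PR (1.43) and BP (0.74), and its rise in PR was larger than in TR by 0.86 (limma adjusted p 0.00735). The changes of both in BP exceeded those in BL (leaf minus panicle -0.79 for CIPK12 and -0.63 for CIPK19).

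Several kinases rose in leaves at booting and in 1 other leaf stage. CIPK11 went from 72.3, 84.4 and 60.1 to 202, 343 and 220.5 in BL (1.79 ± 0.24) and from 90.9, 93.9 and 64.4 to 278, 259 and 311 in TL (1.78 ± 0.24). In PL it read 87.5, 222 and 87.4 against 108, 80.3 and 75.8, and its change there minus that in TL was -2.24, or -1.79 without control replicate 2. In Arabidopsis, CIPK11 holds back a proton pump of the plasma membrane. CIPK24, the kinase of the salt pathway, rose in PL (1.26 ± 0.17) and BL (0.91 ± 0.17), and so did CIPK8 (0.75 ± 0.21 and 1.31 ± 0.21). CIPK2 rose in TL (1.27 ± 0.24), PL (0.69 ± 0.24) and BL (1.73 ± 0.24) and had a log2 change of -0.60 in TR that was not called. Its change in TL exceeded that in TR by 1.87, the largest difference at tillering. In PL the control and drought arrays of CIPK2 and CIPK8 overlapped, and these calls held in 3 and 5 of 6 fits with an array left out.

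CIPK23, the kinase that acts on AKT1, rose in PL (0.71 ± 0.16), PR (0.52 ± 0.16) and BP (0.63 ± 0.16). Its root arrays went from 2368, 1723 and 1765 to 2566, 2973 and 2807 in PR, a call that held in 3 of 6 fits with an array left out, and its groups overlapped in PL. The second probe set of CIPK23 fell in PR (-0.37), rose in BP (0.46) and was not called in PL (-0.23). AKT1 itself, the potassium channel, fell in both roots (log2 change -2.16 in TR and -2.95 in PR), and rose in TL by 1.01 (log2). In PL it fell (-0.56), and in BL and BP it was not called. AKT1 is read by a probe set of the type that can bind several transcripts, as CBL9 is.

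The members that only fell were CIPK1, CIPK10, CIPK17 and CIPK31. CIPK17 fell from 235, 222 and 255 to 113, 105 and 110.4 in TL (-1.11 ± 0.15) and from 287, 479 and 273 to 136, 136 and 145 in PL (-1.27 ± 0.15). CIPK1, which in Arabidopsis takes part in abscisic acid responses, fell in PL from 3558, 4131 and 3407 to 1823, 1818 and 1802 (-1.02 ± 0.29) and in TR from 528, 818 and 561 to 297, 326 and 243 (-1.12 ± 0.29). CIPK31 fell in PR (-0.92 ± 0.22) and in BP, from 1620.4, 1509.9 and 1699 to 636, 672 and 631 (-1.32 ± 0.22).

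CIPK10 fell in TL from 2369.7, 2925 and 2088 to 789, 934 and 978 (-1.44 ± 0.54), the largest fall there. The limma adjusted p was 0.0314, and the call held in 1 of 6 fits with an array left out. It also fell in PL, where controls read 2364, 393 and 2118 and drought arrays 124, 591 and 235 (-2.28 ± 0.54, and -3.11 without control replicate 2). This call was lost with the comparison fitted alone and with the replicate number as a block (limma adjusted p 0.142), and the difference between the changes in PL and TL was not called (-0.84, limma adjusted p 0.440). Its 4 probe sets all fell in PL (-2.28, -1.95, -1.49 and -1.86) and had log2 changes of -1.44, -0.62, -1.56 and -2.85 in TL, of which the -0.62 was not called. The change of CIPK10 in PL minus that in PR was -2.15 (limma adjusted p 0.0273).

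CIPK5 and CIPK14 rose on scattered controls. CIPK5 rose in BL from 323, 939.8 and 231 to 1219.7, 1349 and 1221 (1.61 ± 0.49, held in 4 of 6 fits with an array left out), and in BP from 24.8, 25.2 and 25.1 to 56.7, 128 and 53.6 (1.54 ± 0.49), low values of which drought replicate 2 carries the call (1.14, limma adjusted p 0.139 without it). CIPK14 read 985, 313 and 939 in BL controls and 3793, 2804 and 2949.9 under drought (2.25 ± 0.82), a call that held in 2 of 6 fits with an array left out. It was lost without control replicate 2 (1.71, limma adjusted p 0.156) and without each drought array. Its gene has a near-identical copy, CIPK15, so that its signal may come from both. CIPK30, at the low end of the scale, rose in PL from 16.0, 18.1 and 15.7 to 39.7, 23.5 and 30.8 (0.89 ± 0.23). CIPK7, CIPK20, CIPK21 and CIPK29 were called in 0 comparisons, with log2 changes from -0.89 to 0.48.

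The fits for leaves at panicle elongation turn on control replicate 2 for several members. On that array CIPK5 read 2297 against 378 and 315 on its other control arrays, CIPK18 1586 against 299.6 and 253, and CBL4 679 against 125 and 118. CIPK14 read 93.6 against 1764 and 1646, CIPK10 393 against 2364 and 2118, and CIPK7 1009.9 against 3735 and 4072. The members thus deviated in both directions. Without the array 15 members rose in PL and 7 fell, against 27.1% and 38.2% of all genes, and 15 of the 16 calls with all arrays held in the same direction. The call that was lost is CIPK14 (2.02 with all arrays and 0.62 without, limma adjusted p 0.511). Those gained are rises of CIPK16 (1.51), CIPK25 (1.05), CIPK32 (0.78), CIPK19 (0.46) and CBL6 (0.29) and falls of CIPK7 (-0.86) and CIPK29 (-0.68).

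**Figure D4:**
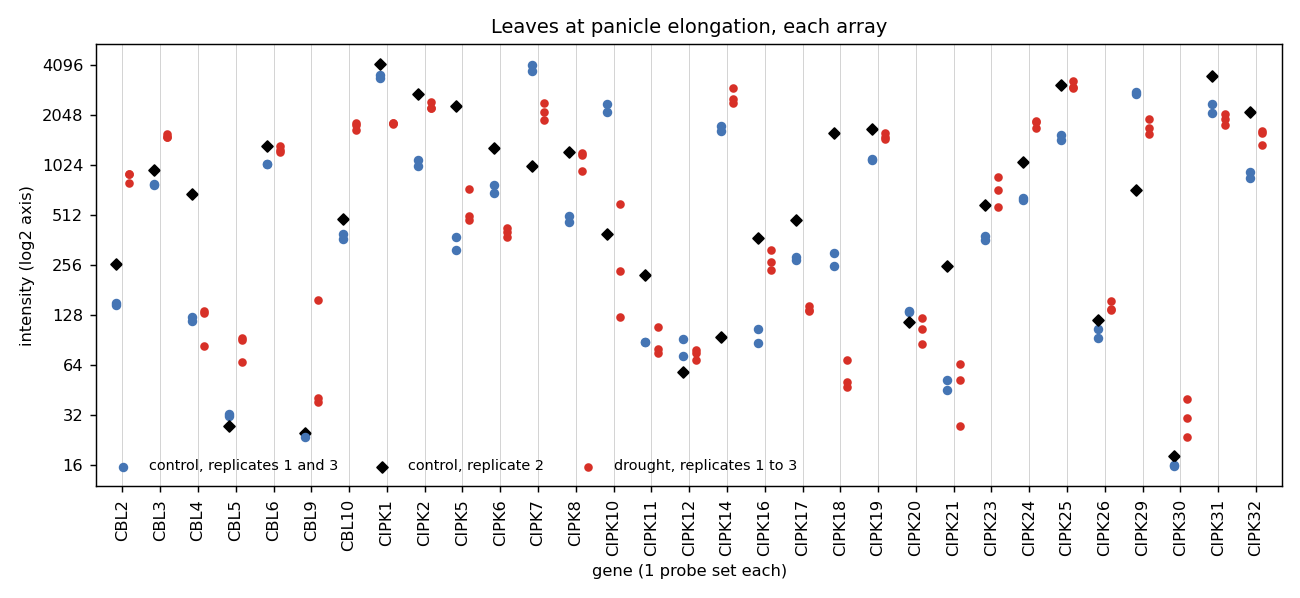
Intensity (log2 axis) of each member on the 6 arrays of leaves at panicle elongation, with control replicate 2 as a black diamond, the other controls in blue and drought arrays in red. The diamond leaves the blue points far below it for CIPK18 (1586 against 299.6 and 253) and far above it for CIPK14 (93.6 against 1764 and 1646).

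Differences of the drought change between organs or stages were called for 18 of 31 members between PL and PR (52.0% of all genes), 17 between BL and BP (41.3%), 13 between BL and PL (39.7%), 12 between PL and TL (49.7%), 7 between TL and TR (37.5%) and 5 between PR and TR (10.2%). At booting 15 of the 17 were higher in leaves and 2 in young panicles, against 27.5% and 13.8% of all genes. Of the 7 sensors, 5 were higher in BL than in BP and 0 lower, while CIPK12 and CIPK19 were the only members called lower. Between PL and PR the sensors CBL2, CBL3, CBL5 and CBL10 were higher in the leaf and CBL4 and CBL6 lower. CBL4 was at -2.84, and at -2.01 without control replicate 2 of PL, both called, while the call of CBL6 (-0.40) was lost without that array (-0.28, limma adjusted p 0.153). Of the kinases 3 were higher in the leaf and 9 lower, which makes 7 higher and 11 lower members, against 23.3% and 28.8% of all genes. Between both root stages all 5 called members (CBL5, CBL6, CIPK12, CIPK19 and CIPK25) were higher at panicle elongation, as were 6.42% of all genes.

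Organs of well-watered plants differed in most members, as they did in most genes measured. Between TL and TR 16 of 31 were called (64.4% of all genes). Of these, 8 were higher in each organ (25.8% each, against 24.1% of all genes in leaves and 40.3% in roots). Between PL and PR 22 were called (63.3% of all genes). Here 13 were higher in leaves and 9 in roots (41.9% and 29%, against 25.5% and 37.8% of all genes). Between BP and BL 21 were called (65.7% of all genes). There 15 were higher in young panicles and 6 in leaves (48.4% and 19.4%, against 41.8% and 23.9% of all genes). CIPK5 had the largest difference between leaves and roots among the members at both stages. It read 1027, 2042 and 1302 in TL and 22.1, 31.0 and 28.1 in TR (log2 difference 5.70 ± 0.49), and 24.8, 25.2 and 25.1 in young panicles. In PL against PR the difference was 4.55, and 3.63 without control replicate 2.

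CIPK1, CIPK25 and CIPK31 were also higher in leaves than roots, by 2.24, 2.32 and 1.56 at tillering and by 2.41, 2.59 and 2.59 at panicle elongation (log2). Root levels were higher for CBL5 (leaf minus root -3.17 and -2.89), CIPK23 (-2.72 and -2.16) and CBL2 (-1.70 and -2.06), and at panicle elongation for CBL9 (-2.86). CIPK23 read 2455, 1782 and 2422 in TR controls and 307, 334 and 361 in TL controls.

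Young panicles held high levels of CIPK6, 2820.2, 2701 and 2769.9 against 35.1, 69.5 and 33.4 in leaves of the same stage (log2 difference 5.99 ± 0.33). Also higher there were CBL9 (3.85), CIPK18 (3.60), CIPK32 (3.06), CIPK11 (2.55) and CIPK23 (2.30), while CIPK5 (-4.04), CIPK12 (-1.75) and CIPK1 (-1.20) were lower. The same control arrays enter the drought changes of BL and BP, so these levels and those changes are not independent.

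**Figure D5:**
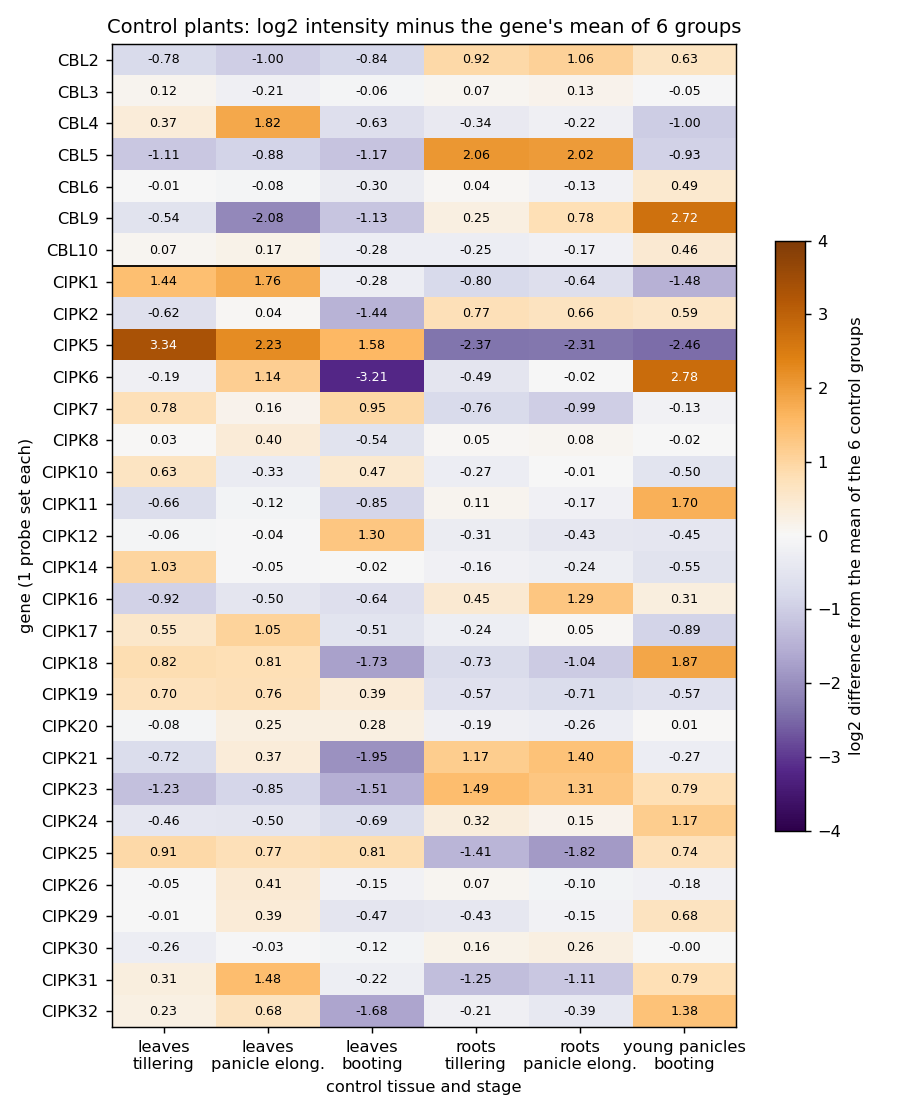
Level of each member in the 6 control groups, as log2 intensity minus the mean of that member over the 6 groups (orange is above and purple below its own mean). CIPK5 is high in leaves and low in roots and young panicles, CIPK6 is highest in young panicles and lowest in leaves at booting, and CBL5 and CIPK23 are high in roots.

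Other probe sets were available for 8 members. The second probe set of CIPK12 rose in TL (2.19), TR (1.34) and PR (2.66) like the first, but its log2 change in BP was 0.35 and not called. The second of CIPK2 rose in TL (0.90), PL (limma adjusted p 5.35e-11), PR (0.82) and BL (2.13) and fell in TR (-0.94) and BP (-0.65), and its remaining one was called in none. For CIPK23 they disagreed in PR, where the brightest rose (0.52) and the second fell (-0.37), and in PL the second was at -0.23 and not called. For CIPK32 they were called in opposite directions in BP (-1.14 and 0.43). The second of CIPK31 was at 0.02 in PR, not called, and fell in BP (-0.48). The second of CIPK7 fell in TR (-0.87), PL (-1.06), PR (-0.80) and BP (-1.46), where the brightest was not called. Both probe sets of CBL9 rose in BL.

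Measured members that are neighbours in the annotation, with no protein-coding gene between them, had different calls in some comparisons. The difference between them was not tested. CIPK2 and CIPK29 lie side by side on chromosome 7, where CIPK2 rose in 3 leaf samples and CIPK29 was called in none of the 6 comparisons. With the replicate number as a block both fell in TR (-0.60 and -0.56, limma adjusted p 0.00924 and 0.0464). CIPK12 and CIPK30 lie side by side on chromosome 1, where CIPK12 rose in 4 comparisons and CIPK30 only in PL, one of the 2 in which CIPK12 was not called.

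Other genes of calcium and stress signalling were counted from lists taken by symbol. Of all genes 28.5% rose and 20.2% fell in TL, 26.1% and 37.8% in PL, and 28.1% and 18.7% in BL. In TR 16.9% rose and 26.1% fell, in PR 16.9% and 24.9%, and in BP 18.3% and 27.4%. The counts of the lists were not tested against these shares. Of 20 calcium-dependent protein kinases, 10 fell and 1 rose in TR, 9 fell and 3 rose in PL, 7 fell and 3 rose in PR, 9 fell and 0 rose in BP, 5 fell and 4 rose in TL, and 2 fell and 4 rose in BL. In TL, PL, BL and BP these splits move with the scaling, to 5 and 6 in TL and 5 and 4 in PL with median centring, and to 3 each in BL and 6 and 2 in BP with quantile normalization. The median log2 change of these kinases was -0.65 in TR and -0.32 in PR. Of 26 calmodulins and calmodulin-like genes, 10 rose and 7 fell in PL and 10 rose and 2 fell in BL, while 11 fell in each root, 3 rose in TR and 2 in PR, and 12 fell and 5 rose in BP. Of the 10 SAPK genes (SnRK2 kinases, which act in abscisic acid signalling), 6 rose in TL, 7 in PL and 6 in BL, and 1, 3 and 1 fell, with 4 rising and 4 falling in TR and 3 each in PR and BP (4 and 1 in BP with quantile normalization). Of 24 potassium and sodium channels and transporters, 10 rose and 6 fell in TL, 10 and 7 in PL, and 9 and 5 in BL. In TR 5 rose and 8 fell, in PR 6 and 8, and in BP 3 and 5 (5 and 3 with quantile normalization). All of them but AKT1 and HKT8 are HAK transporters, and no SOS, NHX, SLAC or SLAH gene was matched. The counts therefore do not stand for known CIPK targets in general. Of 7 calcium pumps and exchangers, 5 rose in BL and 4 fell in each root.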

How the data were processed

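RNA of 36 plant samples was hybridised to Affymetrix rice arrays, and each replicate came from an individual plant, so that p-values measure the spread between plants of 1 line. The authors read the arrays with GCOS and made the values with dChip (invariant-set normalization). The deposited values are linear intensity per probe set, and the dChip version and any mismatch subtraction are not given in the sources used here. Of 57258 rice probe sets, 22436 match 1 gene. Intensities under 1 were set to 1 and taken to log2, with no other filter. A model of 12 group means was fitted over all rice probe sets with limma 3.58.1 in R 4.3.3 (24 residual degrees of freedom), with Benjamini-Hochberg adjustment over all 57258, and was tested on simulated data. The number of arrays limits the precision.

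The members, lists and tests were chosen with earlier results of these data known. The genes to be named were all members past 5-fold, the largest rise and fall in each drought comparison, the 2 largest differences either way between drought changes and the 3 largest either way between control organs. Others were described afterwards, chosen after their values were seen. A clause on the brightest member was dropped, because levels of different probe sets cannot be compared. The paper describes a split-plot with 3 blocks, but replicate numbers are not stated to follow the blocks or to pair plants. Alternatives covered scaling, floor, filter, prior variance, probe set, fold minimum, single fits, the replicate block, each array left out, and the methods' t-test. No sequences are shown.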

Additional observations from a re-analysis of the deposited data

Results flagged for a closer look

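The results here are drought changes that differed between organs or stages by a test of the difference itself, in limma over all rice probe sets. Values are log2 differences between drought changes, the first group minus the second, with the adjusted p of limma. The part of any cell type, array or other cause in them was not tested.

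In leaves against roots at tillering 7 members differed, led by CIPK2 (1.87, adjusted p 9.02e-05), CBL5 (1.53, 0.000496) and CBL2 (1.02, 0.00254). CBL2 was called up in the leaf and down in the root, although the root call was lost when any 1 array was left out.

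In leaves against roots at panicle elongation 18 differed. CBL2 was at 3.01 (adjusted p 2.14e-10), with calls in opposite directions, and so was CIPK6, at -2.05 (0.000989), called lower in the leaf and higher in the root, although the root call held in 2 of 6 fits with an array left out and its groups overlapped. CBL4 was at -2.84 (0.000172) and CIPK10 at -2.15 (0.0273). Without control replicate 2 of these leaves the values were 3.28, -1.78, -2.01 and -2.99.

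In leaves against young panicles at booting 17 differed. CIPK6 was at 4.43 (adjusted p 3.39e-08), CIPK32 at 3.31 (5.68e-08), CIPK18 at 2.85 (0.000124), CBL9 at 2.84 (0.0232) and CBL2 at 1.55 (2.80e-05). CIPK18, CIPK32 and CBL2 were called up in leaves and down in panicles, but a second probe set of CIPK32 was called up in both (0.34 and 0.43). CIPK12 was at -0.79 (0.0215) and CIPK19 at -0.63 (0.0197).

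In leaves at panicle elongation against tillering 12 differed, with CBL10 at 2.16 (adjusted p 1.88e-06), CIPK18 at -2.47 (0.000478) and CIPK11 at -2.24 (7.25e-06), and 2.28, -1.63 and -1.79 without control replicate 2. In leaves at booting against panicle elongation 13 differed, with CIPK6 at 5.11 (7.36e-09), CIPK18 at 4.20 (9.08e-07), CIPK16 at 2.36 (0.00335), CBL2 at -1.34 (0.000224) and CIPK25 at -1.18 (0.0361). Without that array the first 3 were 4.84, 3.36 and 1.71, and CIPK25 was at -1.53. Between roots of both stages 5 differed, with CIPK25 at 2.09 (0.00176).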

How the results depend on the processing

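Called drought changes turned sign only with other probe sets: CIPK32 in BP (-1.14 to 0.43) and CIPK23 in PR (0.52 to -0.37), both called, and CIPK23 in PL (0.71 to -0.23), CIPK31 in PR (-0.92 to 0.02) and the dimmest set of CIPK2 in BL (1.73 to -0.08), not called. Of the values outside the fits with an array left out, 200 counts stayed within 1.5 times and 55 did not, 43 medians moved by less than the replicate spread and 11 by more, and 120 changes of named members kept their call while 7 lost it. With a 2-fold minimum, 1 rose in TR, 5 in PL, 5 in PR (1 fell) and 2 in BP, and 2 differed between roots. With a 5-fold minimum, 1 rose and 0 fell in TL, 0 and 0 in TR, PR and BP, 0 and 1 in PL, and 2 rose in BL, while 0, 2, 4, 1, 3 and 0 differed for TL against TR, PL against PR, BL against BP, PL against TL, BL against PL and PR against TR, and 3, 6 and 6 between control organs (TL and TR, PL and PR, BP and BL). Fitted alone, 5 fell in TL, 6 rose in PL, 13 fell in BP, and 11 drought changes and 10 control levels differed between PL and PR. Shares of all genes are not given for the single fits, the 2-fold minimum or the t-test. They are also not given for quantile normalization in PL and BL, or for the block in PL, PR and BP. Those counts are thus not set against genes in general. With the replicate number as a block, 4 fell in TL, 7 rose and 7 fell in TR, 6 rose in PL, 5 rose and 1 fell in PR, 12 fell in BP, 9 and 10 differed between PL and PR (drought changes and controls) and 1 between roots, and CIPK18 in PR lost its call (-1.08, limma adjusted p 0.0714). Same-numbered control and drought arrays deviated together in TL (r = 0.24, 0.50 and 0.15) and TR (0.36, 0.52 and 0.14). In BL r was also positive in every pair but lower (0.13, 0.10 and 0.07). It was mixed in PR (0.09, -0.22 and 0.11) and negative in every pair of PL and BP. The plants were grown in 3 blocks, but replicate numbers are not stated to follow them, so this is a hint from the data only. Median centring gave 11 rises, 1 fall and a median of 0.18 in TL, a median of 0.070 in TR and of 0.81 in BL, and CIPK10 in TL at -1.29 (limma adjusted p 0.0544). Quantile normalization gave medians of 0.14 in TL, 0.13 in TR and -0.059 in BP. The filter on dim probe sets gave a median of 0.78 in BL and the floor at the 25th percentile one of -0.10 in BP. Second probe sets gave 1 fall in TL, a median of -0.027 in TR and CIPK10 in TL at -0.62. Without the 4 members on shared probe sets, 3 rose in TL, and the medians were 0.33 in BL and -0.078 in BP. The methods' t-test at an unadjusted p gave 11 rises and 8 falls in TL, 7 rises in PL and 13 falls in BP, and after Benjamini-Hochberg 6 falls in TL, 5 rises and 2 falls in PL, 2 and 0 in PR and 10 falls in BP, where CIPK16 in TR (1.93), CIPK18 in PL (-3.17) and PR (-1.08) and CIPK25 in PR were not called. A fold minimum is stricter by construction. The single fits and the block used only the arrays of the comparison, and called more members in some comparisons and fewer in others. The cause of these and the other shifts was not tested. With each array left out in turn, falls ran from 1 to 2 in TL, 2 to 3 in TR, 5 to 9 in PL and 2 to 5 in PR, differences between roots from 3 to 4, and medians from 0.46 to 0.90 in BL, -0.21 to -0.090 in BP and -0.10 to 0.015 in TR. Groups of 3 plants limit what could be called.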

Other observations

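Besides control replicate 2 of leaves at panicle elongation, 4 control arrays had 7 or more members 2-fold or more from the group's other arrays. The others of that same group, replicates 1 and 3, had 7 and 8 (22.6% and 25.8%, against 5.15% and 5.32% of all genes). Each array was set against the mean of the others of its group. For these 2 that mean holds replicate 2, so their counts are not separate from its deviation. On control replicate 2 of leaves at booting 7 of 31 members (22.6%) lay 2-fold or more from the group's other arrays, against 3.79% of all genes, among them CIPK14 at 313 against 985 and 939 and CIPK5 at 939.8 against 323 and 231. On control replicate 3 of roots at panicle elongation 7 members (22.6%) did so, against 6.42% of all genes, among them CIPK14 at 108 against 1774 and 965 and CIPK25 at 626 against 236 and 213. On every drought array 3 members or fewer did so.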
